A study of Mus musculus with 18 samples.

Results

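The 10 genes described here encode the core of the canonical NF-κB pathway. They are the DNA-binding subunits Nfkb1 (p105, the precursor of p50), Rela (p65) and Rel (c-Rel), the classical inhibitors Nfkbia (IκBα), Nfkbib (IκBβ) and Nfkbie (IκBε), the nuclear IκB family members Nfkbiz (IκBζ) and Bcl3, and the IκB kinase subunits Ikbkb (IKKβ) and Ikbkg (NEMO). They are defined by name, with no measured value in the rule, and are 10 of the 36528 genes in the expression files. The members were chosen with earlier results of these data known. All 10 passed the filter on low counts, which 15521 genes passed. RNASeq was performed on renal proximal tubulointerstitial epithelial cells (RPTEC) of C57BL/6 mice, obtained from a commercial supplier. Cells received vehicle (DMSO), recombinant mouse TWEAK (a TNF family cytokine) at 100 ng/mL, or TWEAK at 100 ng/mL together with 3 µM NIK SMI1, a small molecule inhibitor of the NF-κB inducing kinase NIK. They were collected at 6 h and 24 h, so that 18 samples fell into 6 groups of 3. No group received NIK SMI1 without TWEAK, so the effect of the inhibitor in unstimulated cells is not known. The age of the animals is not given, and neither the labels nor the methods say whether the 3 samples of a group came from separate animals or preparations. The p-values therefore measure the spread between these samples, which may be technical.

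In resting cells, dimers of Rela, Rel and p50 are held in the cytoplasm by the classical IκB proteins. Signals from TNF family receptors activate the IκB kinase complex, in which Ikbkb is a catalytic subunit and Ikbkg the regulatory one, and the phosphorylated IκB is degraded, so that the dimers enter the nucleus. Several genes of the pathway are themselves targets of NF-κB, and newly made IκBα carries dimers back out of the nucleus. NIK acts in the non-canonical arm, where it drives processing of p100 to p52.

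The promoters of the 10 genes were examined first, for the letters that NF-κB dimers are known to recognise. Promoters of 7 of the 10 genes were found in RefSeq (build GRCm38.p6), 10 promoters in all because Ikbkg has 4 annotated starts. Nfkb1, Nfkbiz and Ikbkb had no entry. Each promoter holds 250 bases before and 50 bases after the annotated start. A κB motif with the letters GGGNNNTTCC, in which N is any base, was searched on both strands together with a κB consensus of 10 bases that allows other letters at some positions and fewer at others, and matches of both lie over each other in all 3 genes printed here. The 250 bases before the start are given 5′ to 3′ on the strand of the gene, with the matched bases in capitals, for the 3 genes with an entry that were called and rose more than 1.5-fold with TWEAK. They lie at chr17:45555450-45555699 (plus strand) for Nfkbie, chr12:55492648-55492897 (minus strand) for Nfkbia and chr11:23770970-23771219 (minus strand) for Rel.
Nfkbie: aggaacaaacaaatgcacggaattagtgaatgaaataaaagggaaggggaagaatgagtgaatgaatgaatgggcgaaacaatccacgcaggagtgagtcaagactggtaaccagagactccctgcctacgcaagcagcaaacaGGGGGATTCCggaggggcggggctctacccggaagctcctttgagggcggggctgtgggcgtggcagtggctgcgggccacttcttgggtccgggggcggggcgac
Nfkbia: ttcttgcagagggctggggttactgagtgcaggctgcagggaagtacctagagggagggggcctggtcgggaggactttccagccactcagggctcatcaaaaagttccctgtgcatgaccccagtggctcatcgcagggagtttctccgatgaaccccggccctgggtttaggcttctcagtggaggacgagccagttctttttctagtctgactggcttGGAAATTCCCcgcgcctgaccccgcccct
Rel: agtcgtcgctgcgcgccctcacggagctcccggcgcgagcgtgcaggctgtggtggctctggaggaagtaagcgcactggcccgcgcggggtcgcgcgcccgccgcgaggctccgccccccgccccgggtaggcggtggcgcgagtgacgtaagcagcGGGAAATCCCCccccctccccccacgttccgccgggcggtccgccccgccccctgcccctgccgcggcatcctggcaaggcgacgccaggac
The matches lay 106 to 97 bases before the start in Nfkbie, 29 to 20 bases before it in Nfkbia and 92 to 82 bases before it in Rel, where several matches overlap on both strands. Of the 7 genes with a promoter, 3 held the spelled motif, and 4 held the consensus, the additional one being Bcl3, in which the match began 2 bases after the first transcribed base. Counted by promoter, 3 of the 10 promoters of these genes held the spelled motif and 4 the consensus. Among all 32851 promoters of the same length, also counted by promoter, 5.56% held the spelled motif, 4.51% the consensus and 1.60% both. No match was found in these windows for Rela, Nfkbib or the 4 starts of Ikbkg. A match is a run of letters, and binding was not measured here.

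**Figure D1:**
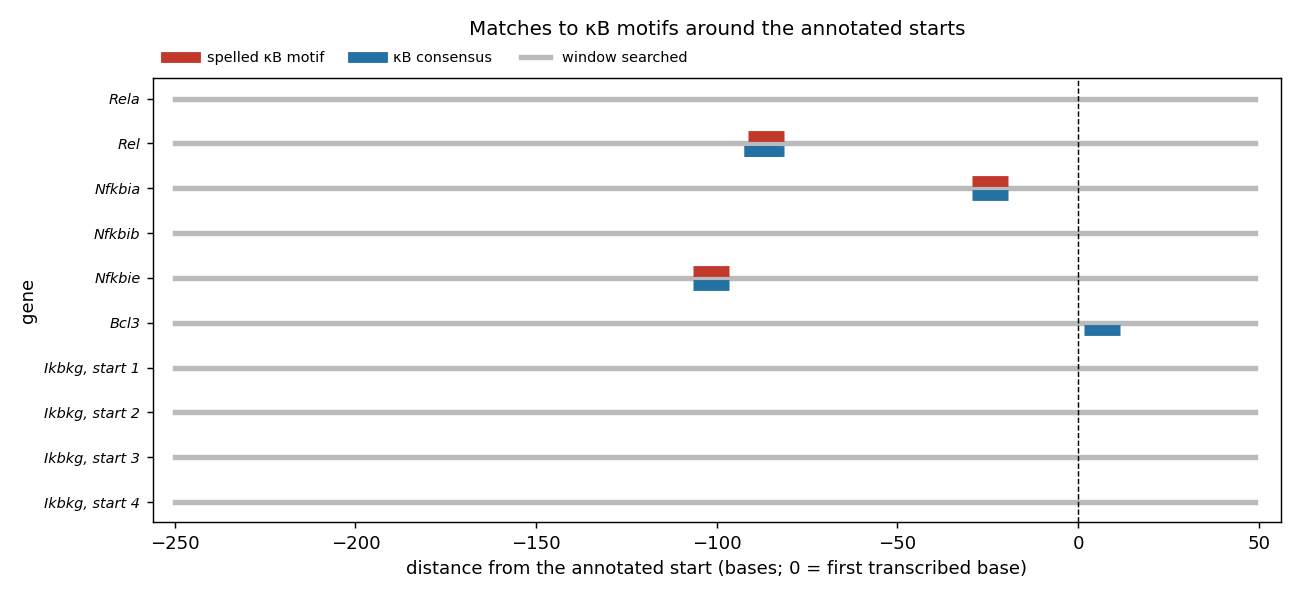
Positions of matches to the spelled κB motif (red) and to the κB consensus (blue) in the window from 250 bases before to 50 bases after each annotated start. The x axis is the distance from the first transcribed base and each grey line is one promoter. Nfkbia, Nfkbie and Rel hold matches before the start, Bcl3 holds a match just after it, and the other promoters hold none.

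Between 18040966 and 51956444 reads were counted per sample (median 35374254). Levels are given in CPM (reads scaled to the size of the library, with TMM factors), either for each sample or as mean ± SD of 3 samples, and standard errors as SE. In bulk RNA, fewer cells with a transcript and less of it per cell cannot be told apart. Markers were checked against the label of the cells. All 8 markers of kidney tubule epithelium were well covered (summed level 7180 to 9560 CPM), whereas the summed level of the 6 proximal tubule markers was 9.50 to 12.7 CPM, most of it Slc5a2 (6.04 to 8.27 CPM) and Cubn (1.98 to 4.52 CPM). The other 4 of the 6 were near 0, with at most 1 read of Slc34a1, 2 of Hnf4a, 15 of Lrp2 and 18 of Aqp1 in any sample. The 8 leukocyte markers summed to 11.3 to 14.6 CPM, most of it Cd68, with at most 11 reads of Ptprc and 0 of Cd3e, the 4 fibroblast markers to 9.22 to 13.8 CPM and the 3 endothelial markers to 0.190 to 0.702 CPM. Reads of 5 pancreatic islet genes (Ins1, Ins2, Gcg, Iapp and Pyy, the last at 0 throughout) numbered over 100 in 14 libraries, but 10 in TWEAK 24 h replicate 2 and 2, 0 and 2 in the 3 libraries with NIK SMI1 at 24 h. Effects of NIK SMI1 under TWEAK at 24 h are therefore also given without the TWEAK libraries that hold islet reads, replicates 1 (253 reads) and 3 (145 reads), which leaves 1 TWEAK library of 24 h, assumed to vary like the others. The 3 vehicle samples of 24 h held 237 to 672 islet reads, so for NIK SMI1 with TWEAK against vehicle at 24 h the difference in these reads and the treatment cannot be told apart. For TWEAK against vehicle at 24 h, and for differences between time points, leaving those libraries out makes the groups more unlike in islet reads and does not remove their part.

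To ask how TWEAK altered the pathway, TWEAK was compared with vehicle at each time point. At 6 h, 7 of the 10 genes rose, namely all 3 DNA-binding subunits, all 3 classical IκBs and Ikbkb, whereas 11.7% of all genes tested rose. At 24 h, 8 rose, the same 7 and Bcl3, against 18.3% of all genes. Only Nfkbia and Nfkbie rose more than 2-fold, at both time points, a rise that 1.75% of all genes showed at 6 h and 2.34% at 24 h. None of the 10 fell at either time point in edgeR, where 12.0% of all genes fell at 6 h and 20.7% at 24 h, and the count was also 0 at an unadjusted p below 0.05 and in DESeq2. The samples of the groups did not overlap for 7 genes at 6 h and 8 at 24 h. Overlap was not counted over all genes, here or below, so these counts are descriptions only. The summed kidney epithelial markers were also lower at 24 h with TWEAK (7180 to 7317 CPM) than with vehicle (7585 to 7730 CPM) or with TWEAK and NIK SMI1 (7658 to 7728 CPM), and their part in the results at 24 h was not tested. Over the 10 genes the median log2 change was 0.46 at 6 h and 0.45 at 24 h, while that of all genes tested was −0.0034 and −0.0055. Genes were called at an adjusted p below 0.05 in edgeR's quasi-likelihood test (Benjamini-Hochberg, all genes tested), which is the test behind every adjusted p below unless another is named.

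**Figure D2:**
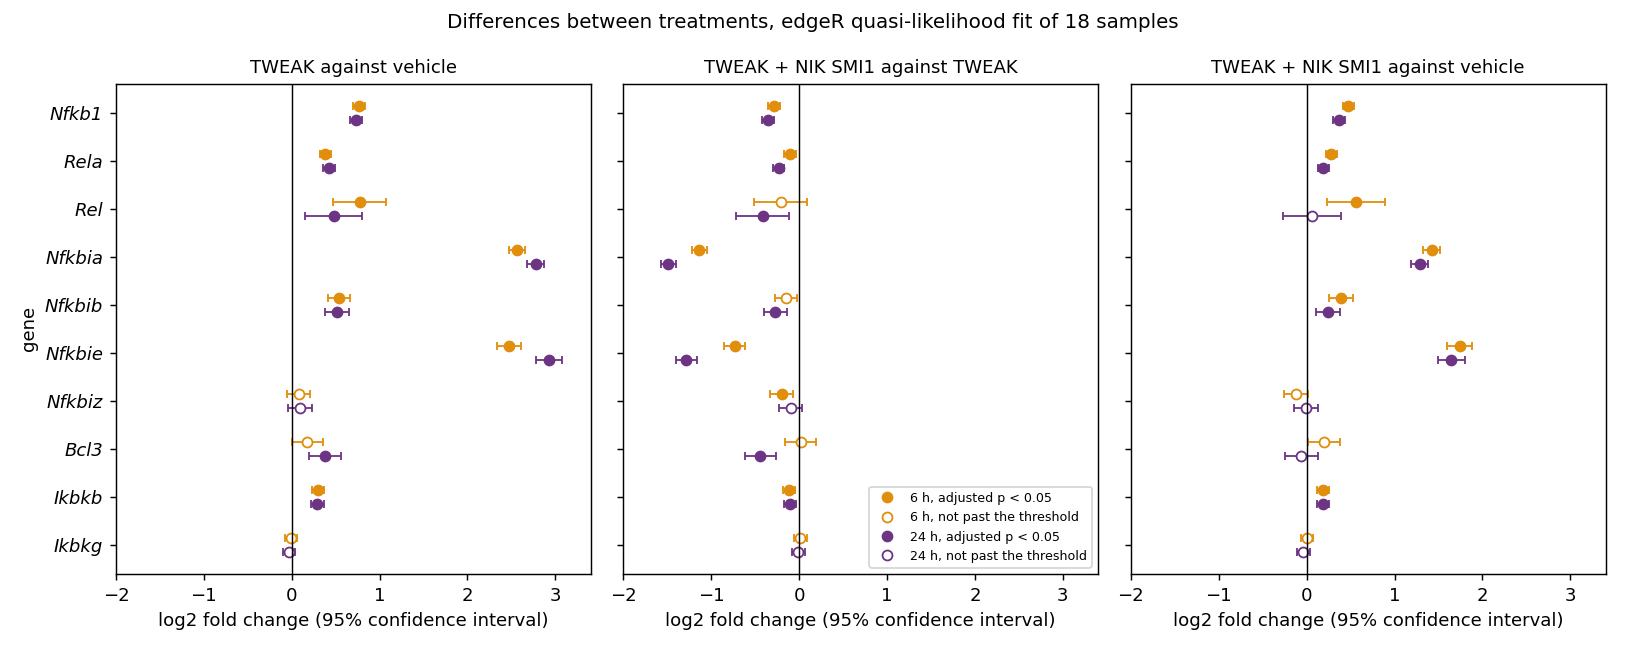
Log2 fold change (x axis) of each of the 10 genes (y axis) for TWEAK against vehicle, TWEAK with NIK SMI1 against TWEAK, and TWEAK with NIK SMI1 against vehicle. Points are estimates at 6 h (orange) and 24 h (purple), bars are 95% confidence intervals, and filled points passed an adjusted p below 0.05. Nfkbia and Nfkbie lie far from the other 8 genes in the 2 panels against vehicle, with log2 fold changes of 2.77 and 2.93 with TWEAK at 24 h. In the panel against TWEAK, the interval of Nfkbie at 6 h (−0.73) meets those of Bcl3 (−0.44) and Rel (−0.42) at 24 h.

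NIK SMI1 was then compared with TWEAK alone. At 6 h, 6 of the 10 genes were lower with the inhibitor (Nfkb1, Rela, Nfkbia, Nfkbie, Nfkbiz and Ikbkb), against 5.70% of all genes tested, and at 24 h 8 were lower (Nfkb1, Rela, Rel, Nfkbia, Nfkbib, Nfkbie, Bcl3 and Ikbkb), against 8.29%. Of the 10, Nfkbia and Nfkbie alone fell more than 1.5-fold, which 1.10% of all genes did at 6 h and 1.75% at 24 h. None of the 10 rose with the inhibitor in edgeR, at an unadjusted p below 0.05 or in DESeq2, whereas edgeR called 5.34% of all genes higher at 6 h and 10.2% at 24 h. The samples did not overlap for 5 genes at 6 h and 8 at 24 h, again not counted over all genes. The median log2 fold change was −0.17 at 6 h and −0.31 at 24 h, and over all genes 0.0029 and 0.0083. These comparisons share the TWEAK samples with those above. With each time point fitted alone, 3 of the 6 calls at 6 h were left, a count given without its share over all genes. Leaving out the islet-read TWEAK libraries leaves 1 TWEAK library at 24 h. The 8 log2 fold changes were then −0.30 (Nfkb1), −0.24 (Rela), −0.40 (Rel), −1.51 (Nfkbia), −0.23 (Nfkbib), −1.36 (Nfkbie), −0.50 (Bcl3) and −0.14 (Ikbkb). With all libraries they were −0.36, −0.23, −0.42, −1.49, −0.27, −1.28, −0.44 and −0.10 in that order. In that fit, a call lost with the islet reads and one lost with fewer libraries cannot be told apart.

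Cells that received TWEAK and NIK SMI1 were also set against vehicle. Without a group given NIK SMI1 alone, what remained of the TWEAK effect and any effect of the inhibitor itself cannot be told apart here. At 6 h the same 7 genes that TWEAK raised were still above vehicle (7.23% of all genes were), with a median log2 fold change over the 10 genes of 0.33. At 24 h 6 were above vehicle (8.07% of all genes), with a median of 0.19. Rel and Bcl3, which TWEAK raised at 24 h, were not called, with values of 0.059 (95% confidence interval −0.27 to 0.39) and −0.063 (−0.25 to 0.12). Samples did not overlap for 8 genes at 6 h and 6 at 24 h, which was not counted over all genes.

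Among the DNA-binding subunits, Nfkb1 rose with TWEAK and was lowered by the inhibitor, at 6 h and at 24 h. Its level was 151, 153 and 152 CPM in the 3 vehicle samples at 6 h, 262, 255 and 259 CPM with TWEAK and 213, 217 and 204 CPM with TWEAK and NIK SMI1. At 24 h it was 141, 142 and 146 CPM in vehicle, 243, 227 and 239 CPM with TWEAK and 188, 181 and 185 CPM with both agents. At each time point the 3 groups were fully apart, with the inhibitor samples between the others. With TWEAK, Nfkb1 rose 1.70-fold at 6 h (log2 change of 0.77 with an SE of 0.032, adjusted p = 2.44e-16) and 1.66-fold at 24 h (log2 change of 0.73 with an SE of 0.033, adjusted p = 4.54e-16). With NIK SMI1 it was 1.22-fold lower than with TWEAK at 6 h (log2 change of −0.29 with an SE of 0.032, adjusted p = 2.57e-07) and 1.28-fold lower at 24 h (log2 change of −0.36 with an SE of 0.032, adjusted p = 2.76e-09). It stayed 1.39-fold and 1.29-fold above vehicle (adjusted p = 2.66e-11 and 2.12e-09). Without the islet-read TWEAK libraries the decrease at 24 h was −0.30 (adjusted p = 3.46e-05). Nfkb1 overlaps the lncRNA gene Gm46827 in RefSeq.

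Rela, the transactivating partner of p50, changed by a smaller factor than Nfkb1 in both comparisons. At 6 h the 3 samples of vehicle gave 163, 169 and 170.2 CPM, those of TWEAK 216, 219 and 221 CPM and those with NIK SMI1 204, 209.9 and 196 CPM. At 24 h the corresponding values were 152, 154 and 154, then 205, 206 and 206, then 179, 176 and 170.5 CPM. No groups overlapped within a time point. The rise with TWEAK was 1.30-fold at 6 h (log2 change of 0.38 with an SE of 0.031, adjusted p = 1.61e-10) and 1.34-fold at 24 h (log2 change of 0.42 with an SE of 0.032, adjusted p = 1.69e-11). NIK SMI1 lowered it 1.18-fold at 24 h (log2 change of −0.23 with an SE of 0.031, adjusted p = 2.56e-06) and 1.07-fold at 6 h (log2 change of −0.10 with an SE of 0.031, adjusted p = 0.0332). The decrease at 6 h lost its call without any of TWEAK 6 h replicates 2 and 3 or TWEAK with NIK SMI1 6 h replicates 1 and 3 (adjusted p = 0.0771 to 0.128), with no filter (adjusted p = 0.0571) and with each time point fitted alone (adjusted p = 0.0984). With both agents, Rela was 1.21-fold above vehicle at 6 h and 1.14-fold at 24 h (adjusted p = 2.88e-07 and 5.22e-05).

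Rel, best known from lymphocytes, was scarce in these cells, with 49 to 219 reads per sample, and its estimates are accordingly wide. The vehicle samples of 6 h held 2.25, 2.31 and 2.42 CPM, the TWEAK samples 3.27, 4.47 and 4.17 CPM and the samples with NIK SMI1 3.24, 3.54 and 3.67 CPM. At 24 h, vehicle gave 2.79, 2.43 and 2.62 CPM, TWEAK 4.31, 3.63 and 3.25 CPM and TWEAK with NIK SMI1 2.25, 3.15 and 2.94 CPM. TWEAK samples were above vehicle at both times, and samples with the inhibitor overlapped those of TWEAK at 6 h and those of vehicle at 24 h. Rel rose 1.71-fold at 6 h (log2 change of 0.78 with an SE of 0.15, adjusted p = 0.000171) and 1.39-fold at 24 h (log2 change of 0.48 with an SE of 0.16, adjusted p = 0.0162). The latter call was lost without vehicle 24 h replicate 2 or TWEAK 24 h replicate 1 (adjusted p = 0.0541 to 0.0694), and without the islet-read TWEAK libraries (0.46, adjusted p = 0.0922), the one gene of the 8 raised at 24 h to lose its call there. At 6 h the difference with NIK SMI1 did not pass the test (log2 change −0.21, 95% confidence interval −0.52 to 0.092, adjusted p = 0.424). At 24 h it passed narrowly (log2 change of −0.42 with an SE of 0.15, adjusted p = 0.0481), a call lost without each of 12 libraries in turn, namely vehicle 6 h replicates 2 and 3, TWEAK 6 h replicate 3, TWEAK with NIK SMI1 6 h replicates 1 and 2, vehicle 24 h replicates 1, 2 and 3, TWEAK 24 h replicates 1 and 2 or TWEAK with NIK SMI1 24 h replicates 1 and 3 (adjusted p = 0.0526 to 0.276), in DESeq2 (adjusted p = 0.0622), with no filter (adjusted p = 0.0531) and without the islet-read TWEAK libraries (adjusted p = 0.236). The level with both agents at 6 h was 1.48-fold above vehicle (log2 change of 0.56 with an SE of 0.16, adjusted p = 0.0166), which was not called without TWEAK with NIK SMI1 6 h replicate 2 (adjusted p = 0.0617).

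**Figure D3:**
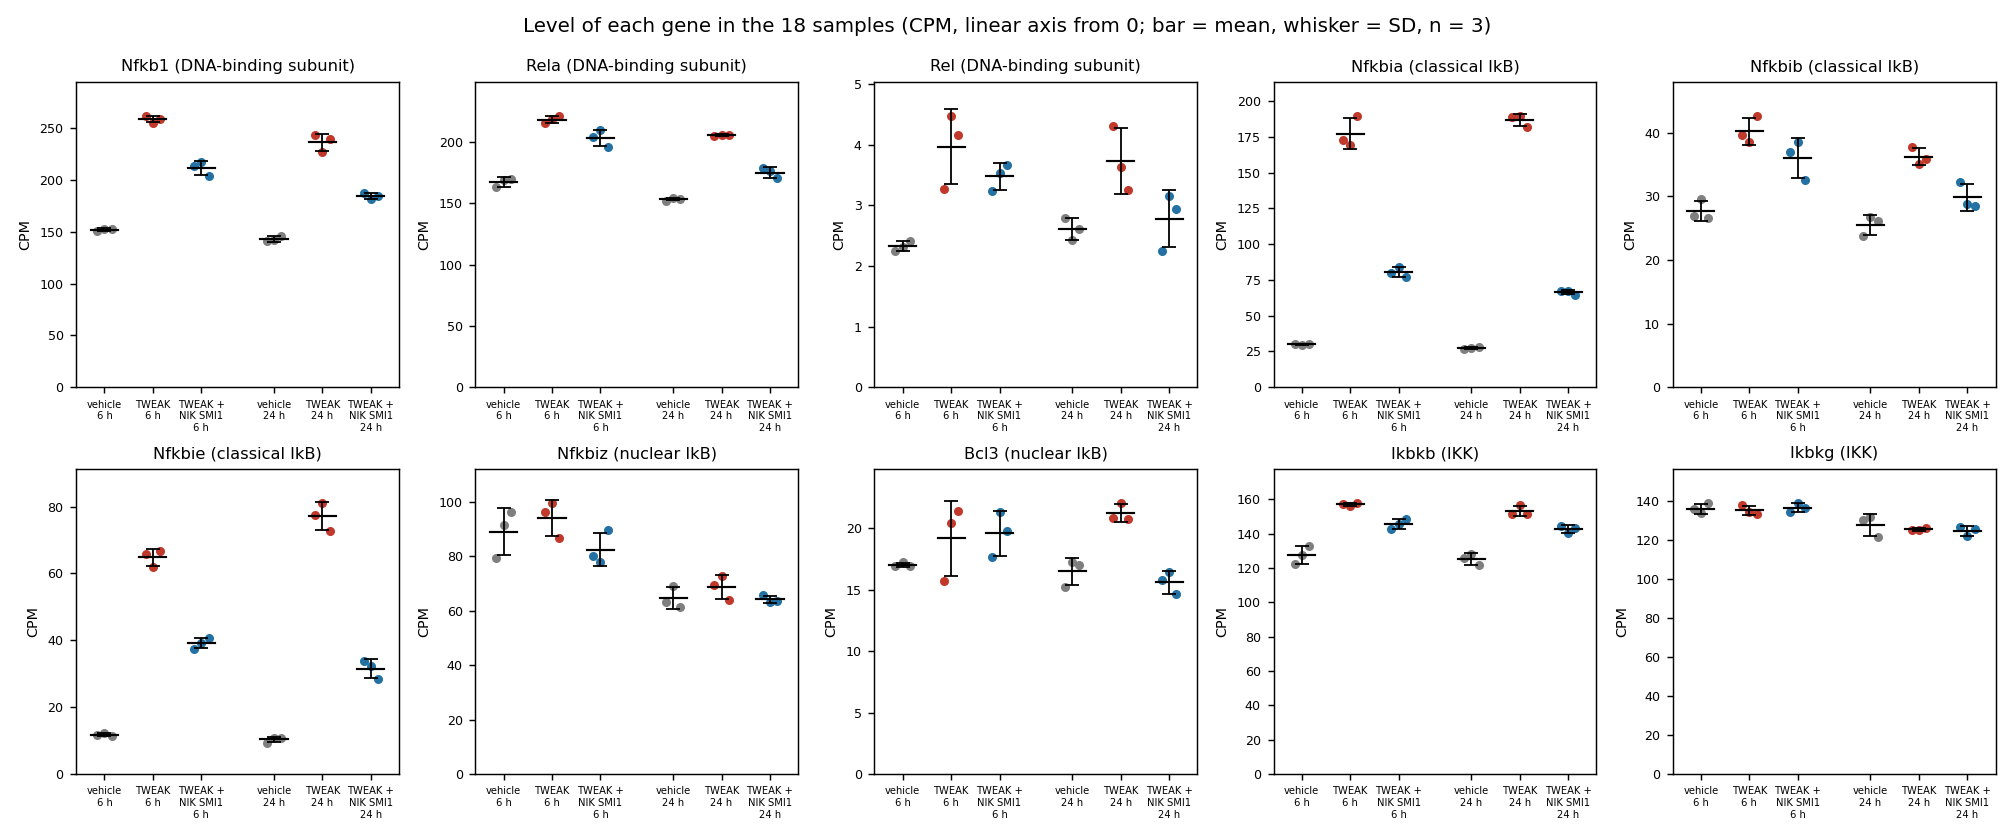
CPM of each of the 10 genes (y axis, linear from 0) in vehicle (grey), TWEAK (red) and TWEAK with NIK SMI1 (blue) at 6 h and 24 h (x axis). Points are the 18 samples, the horizontal bar is the mean and the whisker the SD of 3 samples. In Nfkbia and Nfkbie the TWEAK samples stand far above vehicle with the inhibitor samples between them, while Ikbkg lies between 121 and 139 CPM in every sample.

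Nfkbia, which encodes the inhibitor that binds Rela-p50 dimers and is a classical NF-κB target, gave the clearest response of the 10. At 6 h the 3 vehicle samples held 30.4, 29.7 and 30.1 CPM, the TWEAK samples 173, 169 and 189 CPM and those with NIK SMI1 80.1, 84.2 and 76.8 CPM. At 24 h the 3 values were 26.6, 27.2 and 28.3 CPM in vehicle, 189, 189.5 and 182 CPM with TWEAK and 67.6, 67.4 and 64.6 CPM with both agents. The groups were separated by wide gaps at each time point. The rise with TWEAK was 5.90-fold at 6 h (log2 change of 2.56 with an SE of 0.045, adjusted p = 1.34e-24), the 2nd smallest p-value among all genes tested, and 6.84-fold at 24 h (log2 change of 2.77 with an SE of 0.047, adjusted p = 2.66e-25), the 5th smallest. NIK SMI1 lowered it 2.20-fold at 6 h (log2 change of −1.14 with an SE of 0.042, adjusted p = 9.52e-17) and 2.80-fold at 24 h (log2 change of −1.49 with an SE of 0.042, adjusted p = 9.75e-20), the 4th smallest p-value at each time. It remained 2.68-fold and 2.44-fold above vehicle (adjusted p = 5.81e-18 and 4.83e-17). Against the TWEAK library without islet reads, the decrease at 24 h was −1.51 (adjusted p = 3.92e-15).

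Nfkbie, the inhibitor that controls Rela and Rel dimers with slower kinetics, started from a lower level. It was measured at 11.5, 12.2 and 11.3 CPM in vehicle, 65.7, 61.9 and 66.8 CPM in TWEAK and 37.5, 39.2 and 40.6 CPM in TWEAK with NIK SMI1 samples at 6 h. At 24 h vehicle gave 9.32, 10.9 and 10.7 CPM, TWEAK 77.3, 81.1 and 72.8 CPM and the combination 33.9, 32.2 and 28.4 CPM. As with Nfkbia, no groups overlapped within a time point. TWEAK raised it 5.55-fold at 6 h (log2 change of 2.47 with an SE of 0.065, adjusted p = 6.56e-21) and 7.62-fold at 24 h (log2 change of 2.93 with an SE of 0.070, adjusted p = 4.51e-22). With the inhibitor it fell 1.66-fold at 6 h (log2 change of −0.73 with an SE of 0.059, adjusted p = 7.16e-10) and 2.44-fold at 24 h (log2 change of −1.28 with an SE of 0.058, adjusted p = 2.27e-15). The rise over vehicle with both agents was the largest of the 10 genes, 3.34-fold at 6 h and 3.12-fold at 24 h (adjusted p = 3.31e-16 and 2.21e-15). The decrease at 24 h without the islet-read TWEAK libraries was −1.36 (adjusted p = 6.19e-12).

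Nfkbib, the third classical inhibitor, moved far less. It was found at 27.0, 29.6 and 26.7 CPM in vehicle samples at 6 h, at 39.6, 38.6 and 42.6 CPM with TWEAK and at 37, 38.6 and 32.6 CPM with both agents. The values at 24 h were 23.8, 26.7 and 26.2 CPM, 37.8, 35.2 and 35.8 CPM and 32.3, 28.8 and 28.5 CPM in the same order. TWEAK samples were above vehicle at both times, and those with the inhibitor were below TWEAK without overlap at 24 h only. It rose 1.45-fold at 6 h (log2 change of 0.54 with an SE of 0.062, adjusted p = 1.18e-07) and 1.43-fold at 24 h (log2 change of 0.51 with an SE of 0.067, adjusted p = 4.74e-07). The difference with NIK SMI1 at 6 h did not pass the test (log2 change −0.15, 95% confidence interval −0.28 to −0.019, adjusted p = 0.147), and at 24 h Nfkbib fell (log2 change of −0.27 with an SE of 0.063, adjusted p = 0.00253). Without the islet-read TWEAK libraries that decrease was −0.23 and was not called (adjusted p = 0.115). It stayed above vehicle at 6 h (log2 change 0.39, adjusted p = 0.000111) and at 24 h (0.24, adjusted p = 0.0113), the latter not without vehicle 24 h replicate 1 or TWEAK with NIK SMI1 24 h replicate 1 (adjusted p = 0.0982 to 0.132). Nfkbib overlaps Ccer2 in RefSeq, and the sources used here do not state whether strand was used in counting.

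Because TWEAK samples enter both parts of it, the share of the TWEAK change that was absent with NIK SMI1 is given as a description, on the scale of log2 CPM with 0.1 added, for genes that TWEAK raised more than 1.5-fold. At 6 h it was 38.0% ± 6.01 for Nfkb1, 23.7% ± 12.2 for Rel, 44.6% ± 2.58 for Nfkbia and 29.6% ± 2.35 for Nfkbie (SD over the 3 inhibitor samples), although the decrease of Rel was not called. At 24 h it was 49.2% ± 3.48 for Nfkb1, 53.8% ± 1.29 for Nfkbia and 44.6% ± 4.51 for Nfkbie. At 6 h the samples of Nfkbia lay above those of Nfkbie in this share, and for both genes the samples of 24 h lay above those of 6 h. For Rel the value was 13.1% without TWEAK 6 h replicate 2 and 35.2% without replicate 1. On the linear scale of CPM the shares were larger, 48.4% at 6 h and 68.2% at 24 h for Nfkbie and 65.8% and 75.4% for Nfkbia.

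The nuclear IκB proteins act on DNA-bound p50 and p52 dimers rather than holding dimers in the cytoplasm. Bcl3 passed the test at 24 h and not at 6 h. At 24 h it was measured at 15.2, 17.3 and 17 CPM in vehicle, 20.9, 22.1 and 20.8 CPM with TWEAK and 15.8, 16.5 and 14.6 CPM with TWEAK and NIK SMI1. The TWEAK samples were above all others, and those with the inhibitor overlapped vehicle. It rose 1.30-fold with TWEAK (log2 change of 0.38 with an SE of 0.089, adjusted p = 0.0011) and was 1.36-fold lower with NIK SMI1 (log2 change of −0.44 with an SE of 0.086, adjusted p = 0.00034). At 6 h the samples held 16.9, 17.2 and 16.9 CPM in vehicle, 15.7, 20.4 and 21.5 CPM with TWEAK and 17.7, 21.3 and 19.8 CPM with both, and neither difference passed the test (log2 fold changes 0.18 and 0.015, adjusted p = 0.142 and 0.945). The TWEAK 6 h samples spread widely, and without replicate 1 of that group the difference from vehicle was called (log2 fold change 0.30, adjusted p = 0.0037). The difference between the TWEAK effects at 24 h and 6 h did not pass the test (0.20, adjusted p = 0.372), whereas that between the NIK SMI1 effects did (−0.46, adjusted p = 0.0287). The latter call was lost without any of 4 single libraries (adjusted p = 0.0799 to 0.116). Bcl3 overlaps the lncRNA gene Gm16174 in RefSeq.

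Nfkbiz, a co-activator of a subset of inflammatory genes, was well covered (1291 to 4939 reads) and did not pass the test with TWEAK. Its means were 89.1 ± 8.75 CPM in vehicle, 94.3 ± 6.64 CPM with TWEAK and 82.5 ± 6.18 CPM with both agents at 6 h, and 64.6 ± 4.02, 68.8 ± 4.56 and 64.2 ± 1.34 CPM at 24 h (SD, n = 3). All of these groups overlapped within a time point. For TWEAK against vehicle the log2 fold change was 0.078 at 6 h (95% confidence interval −0.050 to 0.21) and 0.094 at 24 h (−0.043 to 0.23), which leaves room for a rise of at most 1.17-fold. NIK SMI1 lowered it at 6 h (log2 change of −0.20 with an SE of 0.064, adjusted p = 0.0451), a call lost without each of 9 libraries in turn, namely TWEAK 6 h replicates 1 and 2, TWEAK with NIK SMI1 6 h replicates 1 and 2, vehicle 24 h replicates 1 and 3, TWEAK 24 h replicate 1 or TWEAK with NIK SMI1 24 h replicates 2 and 3 (adjusted p = 0.0514 to 0.216), and with each time point fitted alone (adjusted p = 0.0964). At 24 h the value was −0.099 (95% confidence interval −0.23 to 0.035).

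Of the IκB kinase genes, Ikbkb rose and Ikbkg did not pass the test. Ikbkb was measured at 122, 128 and 133 CPM in vehicle, 157, 156 and 158 CPM with TWEAK and 143, 145 and 148 CPM with NIK SMI1 and TWEAK at 6 h. The 24 h samples gave 126, 128 and 122 CPM, 152, 157 and 151 CPM and 144, 140.3 and 143 CPM in turn. The groups did not overlap within a time point, although the differences were small. TWEAK raised Ikbkb 1.23-fold at 6 h (log2 change of 0.30 with an SE of 0.033, adjusted p = 5.57e-08) and 1.23-fold at 24 h (log2 change of 0.29 with an SE of 0.034, adjusted p = 7.07e-08). NIK SMI1 lowered it 1.08-fold at 6 h (log2 change of −0.11 with an SE of 0.034, adjusted p = 0.0293) and 1.07-fold at 24 h (log2 change of −0.10 with an SE of 0.033, adjusted p = 0.0287). The call at 6 h was lost without any of TWEAK 6 h replicates 1, 2 and 3 or TWEAK with NIK SMI1 6 h replicates 1 and 2 (adjusted p = 0.0615 to 0.127) and with each time point fitted alone (adjusted p = 0.0827). That at 24 h was lost without TWEAK 24 h replicate 2 or TWEAK with NIK SMI1 24 h replicates 2 and 3 (adjusted p = 0.067 to 0.138), with no filter (adjusted p = 0.0887) or without the islet-read TWEAK libraries (−0.14, adjusted p = 0.0824). It was 1.14-fold above vehicle with both agents at 6 h and 1.14-fold at 24 h (adjusted p = 0.000287 and 0.000146).

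Ikbkg, the regulatory subunit of the kinase, lay between 121 and 139 CPM in all 18 samples. Its means ranged from 124 ± 2.42 CPM with both agents at 24 h to 136 ± 2.37 CPM with both agents at 6 h. The groups overlapped within each time point. The log2 fold change with TWEAK was −0.011 at 6 h (95% confidence interval −0.079 to 0.058) and −0.029 at 24 h (−0.10 to 0.041). With NIK SMI1 it was 0.015 (−0.055 to 0.085) and −0.0080 (−0.077 to 0.061). These intervals leave room for changes of no more than about 1.07-fold. Ikbkg overlaps Fam3a and G6pdx in RefSeq, and its reads could include some from those genes.

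Levels of different genes can be compared only per length, and for this the RPKM values in the files were used, as descriptions with no test. With vehicle at 6 h, Rela stood highest at 54.0 ± 1.45 RPKM, followed by Nfkb1 at 34.6 ± 0.417, Ikbkb at 26.2 ± 1.11 and Nfkbiz at 21.6 ± 2.19 RPKM. Nfkbia at 17.9 ± 0.129 and Ikbkg at 17.5 ± 0.304 RPKM came next and their samples overlapped. Below them were Nfkbib at 12.3 ± 0.747, Bcl3 at 8.48 ± 0.115, Nfkbie at 4.45 ± 0.200 and Rel at 0.848 ± 0.0327 RPKM. With TWEAK the order changed at the top, and Nfkbia led at 104 ± 6.35 RPKM at 6 h and 116 ± 2.91 RPKM at 24 h, above every sample of Rela. Nfkbie moved from the 9th to the 5th place at both times, where its samples overlapped those of Nfkbiz at 6 h (24.4 ± 0.998 and 22.6 ± 1.59 RPKM) and of no neighbour at 24 h. With NIK SMI1, Rela was again the highest and Nfkbia 3rd, overlapping Nfkb1 at 6 h (47.5 ± 2.16 and 47.6 ± 1.5 RPKM). Rel was the lowest of the 10 in all 6 groups. Vehicle at 24 h had the order of 6 h, except that Ikbkg, Nfkbia and Nfkbiz, at 17.1 ± 0.677, 17 ± 0.590 and 16.4 ± 0.959 RPKM, were not separated from their neighbours among these 3.

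Summed over genes, the transcripts of the 3 classical IκBs overtook those of Nfkb1, Rela and Rel with TWEAK. The 3 subunits together gave 89.4 ± 1.87 RPKM with vehicle, 129 ± 0.876 with TWEAK and 114 ± 3.61 RPKM with both agents at 6 h. The 3 classical IκB genes together gave 34.7 ± 0.829, 147 ± 8.09 and 78.1 ± 3.21 RPKM. The ratio of the IκB sum to the subunit sum was 0.377 to 0.393 in the vehicle samples of 6 h, 1.09 to 1.2 with TWEAK and 0.680 to 0.695 with NIK SMI1 added. At 24 h it was 0.365 to 0.389, 1.25 to 1.33 and 0.633 to 0.669. The ratio was thus above 1 in all 6 TWEAK samples and below 1 in the 12 others. Nfkb2 and Relb, which encode the other DNA-binding subunits, were not part of the subunit sum. Nfkb2 alone rose from 149 to 558 CPM with TWEAK at 6 h, so the ratio depends on the subunits counted. These are transcript and not protein levels.

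**Figure D4:**
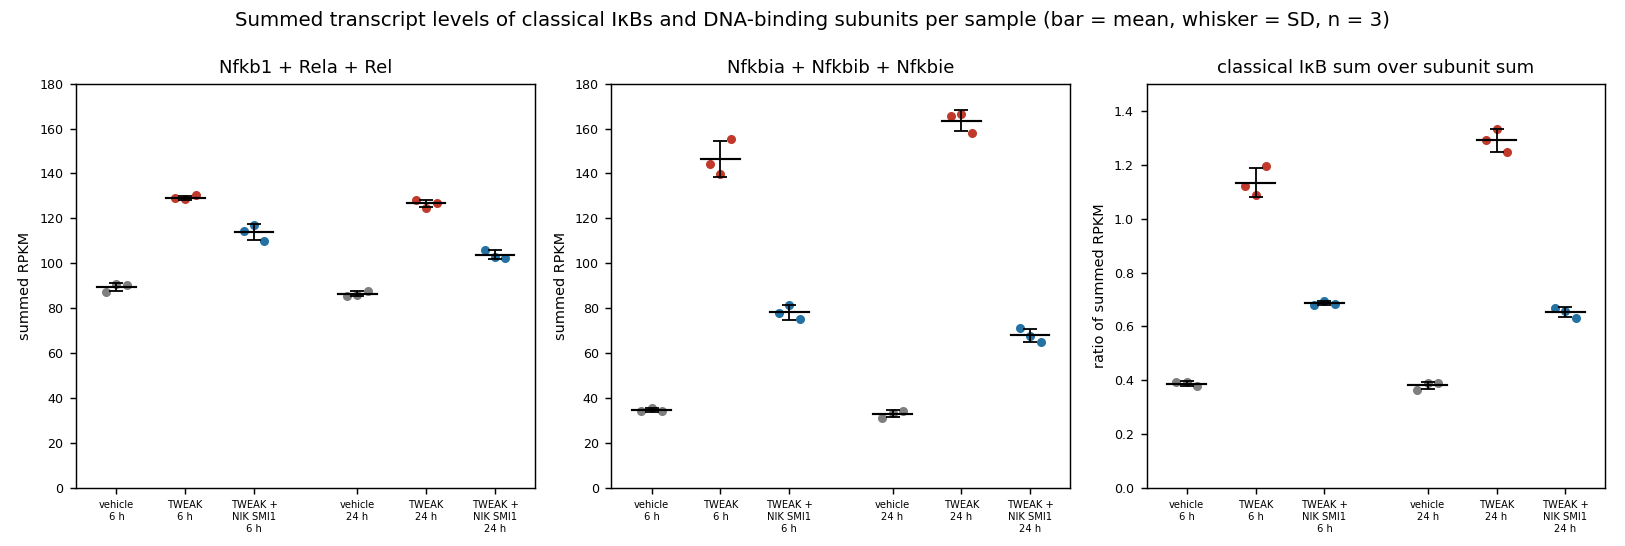
Summed RPKM of the subunits Nfkb1, Rela and Rel (left), summed RPKM of Nfkbia, Nfkbib and Nfkbie (middle) and the ratio of the latter to the former (right) in each of the 18 samples, with bars for means and whiskers for SDs of 3 samples. The ratio was 0.381 ± 0.0138 with vehicle, 1.29 ± 0.0442 with TWEAK and 0.653 ± 0.0185 with NIK SMI1 added at 24 h.

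The make-up of the IκB sum also differed between groups. Nfkbia made up 51.7 ± 1.56% of it with vehicle at 6 h, 71.3 ± 0.515% with TWEAK and 60.8 ± 0.273% with NIK SMI1 added. The share of Nfkbib went the other way, from 35.5 ± 1.29% to 12.1 ± 0.0356% and 20.3 ± 1.05%. Nfkbie made up 12.8 ± 0.266%, 16.7 ± 0.496% and 18.9 ± 1.31%, with no overlap between the groups at 6 h. At 24 h the TWEAK and inhibitor samples overlapped in the share of Nfkbie (18.7 ± 0.586% and 18.5 ± 0.882%). Among the subunits, the ratio of Nfkb1 to Rela was 0.640 ± 0.0104 with vehicle, 0.835 ± 0.0180 with TWEAK and 0.733 ± 0.00348 with NIK SMI1 added at 6 h, and 0.656 ± 0.0117, 0.810 ± 0.0294 and 0.743 ± 0.0208 at 24 h. For the kinase, the ratio of Ikbkb to Ikbkg was 1.5 ± 0.0502, 1.86 ± 0.0362 and 1.71 ± 0.0328 at 6 h.

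Over time without TWEAK, 5 of the 10 genes were lower in vehicle samples at 24 h than at 6 h, where 14.4% of all genes fell. Samples did not overlap for 7, a count not made over all genes. The summed kidney epithelial markers were also lower at 24 h (7585 to 7730 CPM against 8967 to 9424 CPM in vehicle), and their part in this result was not tested. Nfkbiz changed most, by −0.47 on the log2 scale (standard error 0.065, adjusted p = 2.29e-06), from 79.4, 91.6 and 96.3 CPM to 63.2, 69.1 and 61.4 CPM. Rela was lower by a log2 fold change of −0.13 (adjusted p = 0.00308). For Nfkbia the value was −0.14 (adjusted p = 0.0426), a call lost without vehicle 6 h replicates 1, 2 and 3, TWEAK 6 h replicate 1 or vehicle 24 h replicates 1 and 2 (adjusted p = 0.0571 to 0.189). For Nfkb1 it was −0.092 (adjusted p = 0.0377), lost without vehicle 6 h replicates 1, 2 and 3, TWEAK 6 h replicate 1 or vehicle 24 h replicates 1 and 2 (adjusted p = 0.0502 to 0.137) and with no filter (adjusted p = 0.0657). For Ikbkg it was −0.090 (adjusted p = 0.0468), lost without any of 13 libraries, vehicle 6 h replicates 1 and 3, TWEAK 6 h replicates 1, 2 and 3, TWEAK with NIK SMI1 6 h replicate 1, vehicle 24 h replicates 1 and 3, TWEAK 24 h replicates 1, 2 and 3 or TWEAK with NIK SMI1 24 h replicates 2 and 3 (adjusted p = 0.0506 to 0.278), with no filter (adjusted p = 0.0957) and with edgeR's filterByExpr (adjusted p = 0.0552). Nfkbie lay at −0.21 (adjusted p = 0.0618) and was called without TWEAK with NIK SMI1 24 h replicates 1 and 3 (adjusted p = 0.0388 to 0.0486), in DESeq2 (adjusted p = 0.0431), with DESeq2's size factors (adjusted p = 0.0488) and with no filter (adjusted p = 0.0342).

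Whether the effects themselves differed between time points was tested as a difference of differences. The TWEAK effect was larger at 24 h than at 6 h for 2 of the 10 genes, Nfkbia and Nfkbie. A positive difference was called for 3.24% of all genes, which can include genes that TWEAK lowered less at 24 h. The NIK SMI1 effect was more negative at 24 h than at 6 h for 3 of the 10, Nfkbia, Nfkbie and Bcl3. For Bcl3 it was 0.015 at 6 h, and the call was lost without any of 4 single libraries. A negative difference was called for 1.62% of all genes, which can include genes that the inhibitor raised less at 24 h. For Nfkbie, the difference was 0.46 for TWEAK (standard error 0.099, adjusted p = 0.00257) and −0.55 for the inhibitor (standard error 0.082, adjusted p = 0.000185). For Nfkb1, the intervals of the difference were −0.13 to 0.057 with TWEAK and −0.16 to 0.027 with the inhibitor, and neither passed the test (adjusted p = 0.72 and 0.459).

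Other genes of the pathway were counted in lists chosen by function, with earlier results of these data known. Of all genes tested, 11.7% rose and 12.0% fell with TWEAK at 6 h, and 18.3% rose and 20.7% fell at 24 h. With NIK SMI1 against TWEAK, 5.34% rose and 5.70% fell at 6 h, and 10.2% rose and 8.29% fell at 24 h. Of 9 genes of the non-canonical arm, 7 rose with TWEAK at 6 h (median log2 change of the list 0.82) and the same 7 at 24 h (0.95), where Chuk (IKKα) was slightly lower (−0.11). With NIK SMI1, 4 fell and 2 rose at 6 h (median −0.082), and 6 fell and 1 rose at 24 h (−0.27). Birc3, an inhibitor of apoptosis protein that takes part in degrading NIK, went from 6.57 ± 0.340 to 36.8 ± 1.45 CPM with TWEAK at 6 h (log2 change of 2.48, adjusted p = 1.49e-19) and was at 20.8 ± 0.387 CPM when NIK SMI1 was present (log2 change of −0.82, adjusted p = 1.39e-09). Nfkb2, the gene of p100, rose from 149 ± 4.54 to 558 ± 21.6 CPM at 6 h (log2 change of 1.90, adjusted p = 1.23e-23). Map3k14, the gene of NIK itself, was higher with the inhibitor than with TWEAK alone at 6 h, at 135 ± 10.3 against 100.4 ± 4.64 CPM (log2 change of 0.43, adjusted p = 1.3e-06), and also at 24 h (0.33). The other gene that was higher at 6 h was Tnfrsf12a, the receptor of TWEAK (0.13).

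Of 14 genes listed as upstream of IKK or related to it, Tank, Ikbke and Traf6 rose with TWEAK at 6 h (list median 0.060), against 11.7% of all genes. At 24 h these and Ripk1 and Rnf31 rose while Traf5 and Tab3 fell (0.085). The other 7 were not called, and 39.0% of all genes were called in either direction. With NIK SMI1, Tank, Ikbke and Traf6 fell at 6 h (median −0.045), against 5.70% of all genes. These and Rnf31 fell at 24 h (−0.054), against 8.29%. Tank, an adaptor of TRAF proteins, rose at 24 h from 35.4 ± 2.07 to 69.5 ± 2.91 CPM (log2 change of 0.96, adjusted p = 1.19e-13) and fell with the inhibitor (log2 change of −0.54, adjusted p = 1.27e-08). Ikbke, a kinase related to Ikbkb, rose at 24 h from 79.4 ± 2.75 to 124 ± 1.43 CPM (log2 change of 0.65, adjusted p = 4.79e-13). Genes for IκB turnover by ubiquitin ligase and proteasome were called about as often with TWEAK at 6 h as all genes, 2 of 8 against 23.7% in either direction. Of the 8 found in the files, Fbxw11, a substrate receptor of the ligase, rose with TWEAK at 6 h (0.14, adjusted p = 0.00182). The scaffold of the ligase, Cul1, fell (−0.096, list median 0.028). At 24 h Ube2m and Psmd14 rose (0.12 and 0.10, median 0.067), where 18.3% of all genes rose. None was called with NIK SMI1 in edgeR, where 2 of 8 at 6 h and 0 at 24 h had an unadjusted p below 0.05, and DESeq2 called 1 lower at 6 h and none at 24 h.

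Of 8 feedback genes, 5 rose with TWEAK at each time point, against 11.7% and 18.3% of all genes. They were Tnfaip3, Tnip1, Tnip3, Traf1 and Nfkbid (list medians 0.68 and 0.83). Nfkbid was scarce, at 0.108 ± 0.0960 CPM in vehicle and 0.370 ± 0.204 CPM with TWEAK at 6 h. With NIK SMI1, Tnfaip3, Tnip1, Tnip3 and Traf1 fell at both times (medians −0.38 and −0.61), against 5.70% and 8.29% of all genes. Traf1, an adaptor induced by NF-κB, had the largest change of all lists, from 1.12 ± 0.234 to 56.2 ± 2.19 CPM at 24 h (log2 change of 5.68, adjusted p = 1.07e-23), and was at 10.4 ± 0.560 CPM in cells that also received NIK SMI1 (log2 change of −2.43, adjusted p = 7.37e-19). Tnfaip3, the gene of the deubiquitinase A20, was lowered by NIK SMI1 at 6 h from 539.9 ± 0.532 to 405 ± 12.0 CPM (log2 change of −0.41, adjusted p = 8.19e-10). Of 12 inflammatory genes known to respond to NF-κB, 10 were tested. With TWEAK, 7 rose at 6 h (median 0.68) and 6 at 24 h (0.77), against 11.7% and 18.3% of all genes. At 24 h the scarce chemokine Cxcl5 (−1.98, 1.14 ± 0.250 CPM in vehicle) and the siderophore-binding Lcn2 (−1.07) fell. With NIK SMI1, 5 fell at 6 h (Icam1, Vcam1, Cxcl1, Csf2 and C3, median −0.47) and 7 at 24 h (−0.80). Of all genes, 5.70% and 8.29% fell. The adhesion molecule Vcam1 went from 5.84 ± 0.493 to 139 ± 3.45 CPM with TWEAK at 24 h (log2 change of 4.54, adjusted p = 2e-25) and to 19.6 ± 1.80 CPM with the inhibitor (log2 change of −2.82, adjusted p = 5.54e-22). Where no gene of a list is given as moving the other way, edgeR called 0, and at an unadjusted p below 0.05 there was 1 upstream gene with TWEAK at 6 h, and with NIK SMI1 at 24 h 1 upstream gene and 1 response gene, none of them called by DESeq2.

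Finally, the genes whose levels ran most closely with the responding members were named by Pearson's r of log2 CPM over the 18 samples, which share their libraries and treatments, as a description. For Nfkbia the closest was Cx3cl1, which encodes the chemokine fractalkine (r = 0.996), before Fbxo32 (0.990) and Dnajb2 (0.989). Cx3cl1 was also closest to Nfkbie (r = 0.992), with Arhgef40 (0.992) and Shroom3 (0.989) behind it. For Nfkb1 they were the chemokine Cxcl16 (r = 0.990), Mul1 (0.989) and Ifngr2, a chain of the interferon gamma receptor (0.988). For the scarce Rel the closest genes reached only 0.861 (Stx11), 0.860 (Socs7) and 0.859 (4833438C02Rik).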

How the data were processed

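RNASeq was measured in 18 samples of murine RPTEC. Per the study's methods, alignment by the authors was with GSNAP, run inside HTSeqGenie, against NCBI build 37, and only reads with a unique placement in exons were kept. The deposited counts are raw, and the authors also deposited RPKM values, scaled by exonic length and the total of the sample. The labels and the methods disagree on the sequencer and read length. Genes carry Entrez identifiers, and symbols, overlaps and promoters come from RefSeq (GRCm38.p6). No build 37 coordinates were used.

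Genes with more than 10 reads in at least 4 samples (15521 of 36528) were fitted in edgeR 4.0.16 under R 4.3.3 as 6 groups (TMM, glmQLFit, glmQLFTest, Benjamini-Hochberg). The common biological coefficient of variation was 0.0404. Standard errors were derived from the F statistic. Summaries were computed in Python 3.11.15. The fits were also run on simulated counts in which TWEAK only raised genes, unlike in these data. No result given here rests on that run. Fold cut-offs were 2 for TWEAK and 1.5 for NIK SMI1, after the study. DESeq2 1.42.0, other normalization and filters, each time point alone and leaving out each sample were tried, and the set without islet-read TWEAK libraries was added after seeing the data. Replicate numbers follow the order of the samples. The rule for named genes took all 10 members and values for at most the 3 genes of each pathway list with the largest change among those called. Other list genes are named to complete small counts, and Chuk, Tnfrsf12a, Cxcl5, Lcn2 and Map3k14 at 24 h were given values after theirs were seen. The members and lists were chosen with earlier results of these data known. Protein sequences were not used here.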

Additional observations from a re-analysis of the deposited data

Results flagged for a closer look

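For 3 of the 10 genes an effect differed between 6 h and 24 h in the test of the difference itself (edgeR quasi-likelihood, adjusted over all genes tested). The TWEAK effect on Nfkbia was larger at 24 h by 0.21 on the log2 scale (standard error 0.064, adjusted p = 0.0356), being 2.56 at 6 h and 2.77 at 24 h. This call was lost without each of vehicle 6 h replicates 1, 2 and 3, TWEAK 6 h replicates 1 and 2, vehicle 24 h replicates 1 and 2 or TWEAK 24 h replicates 1 and 2 (adjusted p = 0.0509 to 0.134), and without the islet-read TWEAK libraries (0.24, adjusted p = 0.0844). On Nfkbie the TWEAK effect was larger by 0.46 (adjusted p = 0.00257), 2.47 at 6 h and 2.93 at 24 h, a call that no left-out library removed. The effect of NIK SMI1 under TWEAK was deeper at 24 h by −0.35 for Nfkbia (adjusted p = 0.000718) and by −0.55 for Nfkbie (adjusted p = 0.000185), and neither call was lost without any single library. For Bcl3 it was deeper by −0.46 (adjusted p = 0.0287), 0.015 at 6 h and −0.44 at 24 h. That call was lost without TWEAK 6 h replicate 1, TWEAK with NIK SMI1 6 h replicate 2, TWEAK 24 h replicate 2 or TWEAK with NIK SMI1 24 h replicate 3 (adjusted p = 0.0799 to 0.116) and without the islet-read TWEAK libraries (−0.51, adjusted p = 0.0876). Islet reads numbered 10 or fewer in 4 of the 6 libraries of TWEAK and TWEAK with NIK SMI1 at 24 h and 225 to 831 in the 9 libraries of 6 h, and their part in these differences was not tested, since leaving out TWEAK libraries of 24 h does not remove it.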

How the results depend on the processing

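Of 2130 values of the 10 genes under alternatives, 1995 kept direction and side of the threshold, 94 lost and 8 gained a call, and 33 changed sign, 0 of them called in either fit. The call changed somewhere for 18 of 90 gene and comparison pairs, and the causes were not tested. The counts of genes called moved by over 1.5 times in the following cases. With NIK SMI1 at 6 h, 3 of 10 were called with each time point alone and 3 to 6 with single libraries left out (3 without TWEAK 6 h replicate 2 or TWEAK with NIK SMI1 6 h replicate 1). Without the islet-read TWEAK libraries, which leaves that arm with 1 library assumed to vary like the others, the count was 5 for NIK SMI1 at 24 h, 3 for vehicle over time and 1 for the change in TWEAK effect. With single libraries left out the last 2 were 2 to 6 and 1 to 2. On the linear scale the share of the TWEAK change removed was 44.3% (Nfkb1), 65.8% (Nfkbia) and 48.4% (Nfkbie) at 6 h and 55.5%, 75.4% and 68.2% at 24 h. Uncalled values that changed sign with single libraries left out ranged for Ikbkg from −0.024 to 0.0043 (TWEAK, 6 h), −0.020 to 0.0076 (NIK SMI1, 24 h), −0.0092 to 0.019 (both agents against vehicle, 6 h) and −0.052 to 0.0019 (TWEAK effect over time), for Bcl3 from −0.11 to 0.097 (NIK SMI1, 6 h) and −0.094 to 0.0089 (vehicle over time), for Rel from −0.044 to 0.21 and for Nfkbiz from −0.035 to 0.042 (both agents against vehicle, 24 h), and over time for Ikbkb from −0.056 to 0.0020 (vehicle), −0.037 to 0.021 (TWEAK effect) and −0.0059 to 0.025 (NIK SMI1 effect), for Nfkbib from −0.087 to 0.017 and for Nfkbiz from −0.046 to 0.089 (TWEAK effect). Ikbkg with both agents against vehicle at 6 h was −0.0011 in DESeq2 and −0.00062 with its size factors, Nfkbiz at 24 h was 0.00092 with no filter, and without the islet-read TWEAK libraries the Ikbkb effects over time were 0.025 (TWEAK) and −0.023 (NIK SMI1). No paired analysis was possible because the labels give no replicate numbers. Depth limits Rel most, at 49 to 219 reads per sample.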
